A study of Rattus norvegicus with 2 samples.

Results

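Glycolysis turns glucose into pyruvate in the cytosol and yields ATP without oxygen. Hexokinase and phosphofructokinase spend ATP in its opening steps, aldolase splits the sugar, and the later steps from glyceraldehyde-3-phosphate dehydrogenase to enolase and pyruvate kinase return ATP and NADH. Nerve terminals hold glycolytic enzymes, many of them close to synaptic vesicles and membranes, and the mRNAs of such enzymes are abundant throughout the brain. Lactate dehydrogenase interconverts pyruvate and lactate, which neurons and astrocytes exchange.

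The 10 genes followed here were the hexokinase Hk1, the phosphofructokinase subunits Pfkl and Pfkm, the aldolase Aldoa, the dehydrogenase Gapdh, the kinase Pgk1, the mutase Pgam1, the enolases Eno1 and Eno2, and the lactate dehydrogenase subunit Ldhb. They were chosen by name, and each was read from every probe set whose single gene symbol in the platform's annotation was that gene. Of the 10 genes, 9 had such a probe set, of 4737 genes with one on the whole array. No probe set carried the symbol Eno2 in the annotation used here, so the neuronal enolase was not analysed. The 191 probe sets with a # sign in their names have no symbol there and are unnamed here, and one of them may measure Eno2. The 9 genes had 25 probe sets. Of these, 3 were sense-strand controls for Gapdh, and the other 22 comprised 16 ordinary probe sets and 6 of the manufacturer's control probe sets for Gapdh and hexokinase.

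The study set RNA of hippocampal synaptosomes, nerve endings pinched off during homogenization together with attached postsynaptic membrane, beside RNA of the total hippocampus. Both came from Sprague Dawley rats at postnatal day 70, and the labels name no treatment. Each was measured on 1 Affymetrix rat array after SMART cDNA amplification, so every value below is a single measurement, no test between the groups was possible, and the number of arrays limits the precision. The number of animals behind a sample is not stated, and in bulk RNA fewer cells or terminals of a kind and less RNA in each cannot be told apart.

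Signals are linear intensities as deposited. For ratios, signals under a floor of 846 were set to it, which is the median of all ordinary signals. The log2 ratio of synaptosome over total hippocampus was then centred on its median over the filtered probe sets, -0.17. Where 1 array was at the floor the ratio is a bound for that floor only, written "at least", and folds include the centring. The floor is smaller than 2912.6 and 5280.25, the 95th percentiles of the sizes of negative signals in synaptosomes and the hippocampus. With a higher floor such a ratio can be nearer to 0. A gene is described by its brightest filtered probe set unless another is named. The only error these arrays offer is the spread among the probe sets of a gene, whose pooled SD was 0.90 over 658 genes. It pools all signal levels, includes bounds and does not measure variation between arrays or animals. The SD of a difference between 2 such ratios is then 1.28. Both SDs come from the reported setting and were kept as the unit under every other setting.

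The promoters of the upper steps are shown first because Hk1, Pfkm, Pfkl and Aldoa were the members whose ratios lay farthest from one another. The sequences are RefSeq windows of assembly GRCr8 from 250 bases before to 50 after a transcription start, written 5′ to 3′ on the strand of the gene. Capitals mark ACGTG or GCGTG, the core letters of the hypoxia response element bound by HIF transcription factors, or their reverse complements CACGT and CACGC. For Hk1 and Aldoa, which have several annotated starts, the window holding a match is printed.
Hk1, chr20:30842023-30842322, minus strand: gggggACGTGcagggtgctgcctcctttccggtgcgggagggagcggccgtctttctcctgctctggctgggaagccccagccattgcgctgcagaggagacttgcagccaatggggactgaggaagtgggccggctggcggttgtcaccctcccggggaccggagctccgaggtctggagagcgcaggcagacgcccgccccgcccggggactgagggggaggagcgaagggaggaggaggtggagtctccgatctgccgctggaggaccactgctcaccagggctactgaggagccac
Pfkl, chr20:10663715-10664014, plus strand: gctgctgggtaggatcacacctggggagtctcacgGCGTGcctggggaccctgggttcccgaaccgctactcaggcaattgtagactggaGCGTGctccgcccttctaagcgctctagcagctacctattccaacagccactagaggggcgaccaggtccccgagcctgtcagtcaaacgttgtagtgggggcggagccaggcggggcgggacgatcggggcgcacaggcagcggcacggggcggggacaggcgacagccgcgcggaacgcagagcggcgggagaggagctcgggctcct
Pfkm, chr7:131113849-131114148, plus strand: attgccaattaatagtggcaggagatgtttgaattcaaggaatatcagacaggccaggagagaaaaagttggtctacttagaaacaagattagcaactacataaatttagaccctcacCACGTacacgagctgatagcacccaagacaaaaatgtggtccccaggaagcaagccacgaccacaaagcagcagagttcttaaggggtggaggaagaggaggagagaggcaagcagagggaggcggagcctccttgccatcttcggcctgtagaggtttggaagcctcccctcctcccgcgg
Aldoa, chr1:190836728-190837027, minus strand: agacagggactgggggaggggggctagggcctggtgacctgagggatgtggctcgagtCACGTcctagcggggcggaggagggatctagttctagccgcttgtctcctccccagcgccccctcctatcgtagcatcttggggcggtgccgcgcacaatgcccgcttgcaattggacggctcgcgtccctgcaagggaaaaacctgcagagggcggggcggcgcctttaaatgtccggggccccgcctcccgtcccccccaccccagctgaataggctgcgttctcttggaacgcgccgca

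Hk1 had 1 match, which starts 245 bases before the transcription start, and Aldoa had 1, at 192 bases before it. Pfkm had 1 at 132 bases and Pfkl 2, at 215 and 160 bases. Promoter windows were found for 9 of the 10 genes, Pgk1 being the one without. Of their 13 windows, 10 held a match, or 76.9%, where 41.6% of all 33469 windows did. By gene, all 9 with a window held a match, where 44.6% of all 27457 genes did, so genes on both sides of the comparison have one. The ratios compare 2 RNA preparations of one tissue, and promoter use was not tested.

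By the brightest probe sets of the 9 genes, the upper steps were spread widely and the lower steps lay close together. Hk1 was 2.88-fold higher in synaptosomes, Aldoa 3.96-fold lower and Pfkl 3.05-fold lower, while Pfkm had a log2 ratio of 0.74. The 5 later genes, Gapdh, Pgk1, Pgam1, Eno1 and Ldhb, lay between -0.48 and 0.20. The 4 upper genes thus spanned 3.51 on the log2 scale and the 5 later ones 0.68. These spans depend on the members and probe sets used. All measured probe sets of the 5 later genes ran from -0.85 to 0.59. The upper-step isozymes Pfkp, Aldoc and Hk2 had log2 ratios of 0.28, -0.49 and -0.73. Pfkl was dim and Aldoa had 1 probe set. Mean log2 levels were 11.05 for Pfkl, 13.30 for Hk1, 14.16 for Pfkm, 15.20 for Aldoa and at least 14.87 for the later genes. All 9 genes passed the filter on low signals. At the threshold of 2-fold, 1 of 9 was higher, where 19.1% of the 2735 filtered genes were, and 2 of 9 were lower, where 14.3% were, so both counts are near the share among all genes. The median of the 9 was -0.08, against 0.00 for all filtered genes.

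**Figure D1:**
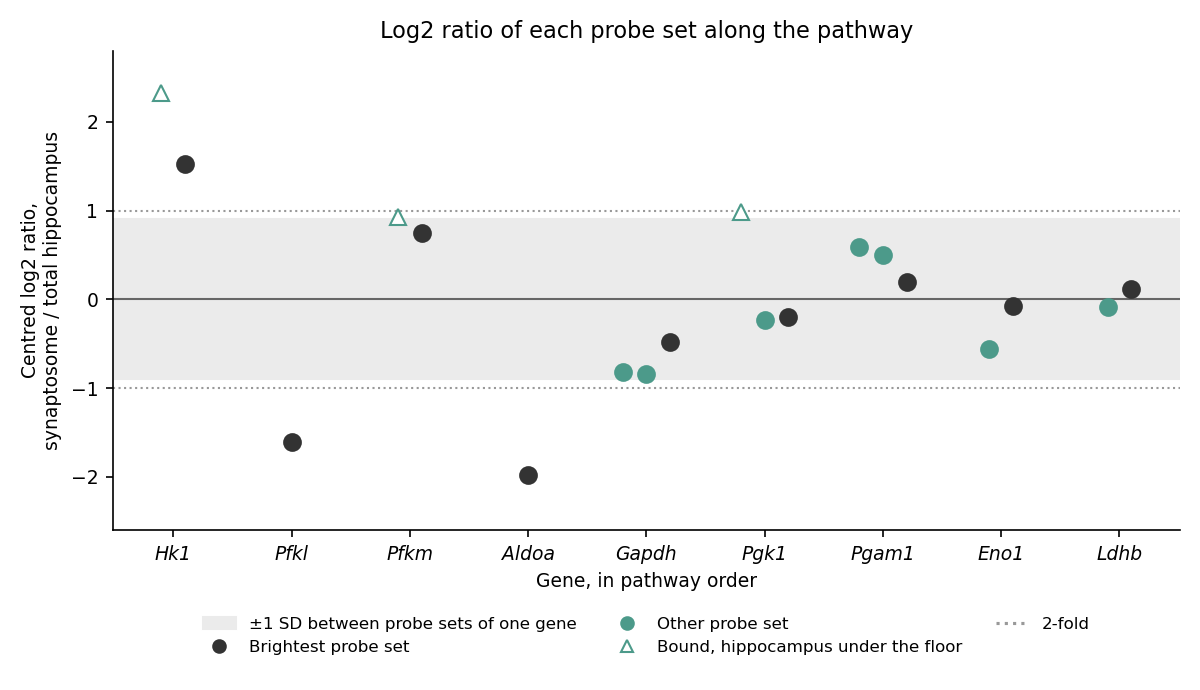
Centred log2 ratio of synaptosome over total hippocampus for the 19 filtered probe sets of 9 glycolytic genes, in pathway order; the grey band is 1 SD between probe sets of one gene on either side of 0, and dotted lines mark 2-fold. Hk1 lies above and Pfkl and Aldoa lie below the band, and the bounds of Pfkm at 0.93 and Pgk1 at 0.98 lie just above it. The probe sets from Gapdh to Ldhb measured on both arrays stay between -0.85 and 0.59.

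Hexokinase 1 phosphorylates glucose on entry into the cell and is the main hexokinase of brain. Its brighter probe set (rc_AI012593_at) read 16117 in synaptosomes against 6287 in the hippocampus, which is a log2 ratio of 1.53. As a measure of the noise around 0, 95% of the negative signals were smaller in size than 2912.6 in synaptosomes and 5280.25 in the hippocampus, and both Hk1 signals exceeded these sizes. The other ordinary probe set (U27319exon_at) read 3772 in synaptosomes and -180 in the hippocampus, at least 5.02-fold higher against the floor of 846. With the floor at percentile 75 of all signals its log2 ratio was 0.51, under 2-fold. Both probe sets had the larger signal in synaptosomes, and Hk1 ranked 235 from the top of 2735 genes. The manufacturer's hexokinase control probe sets did not register the transcript on either array. Those for the 5′, middle and 3′ parts read 37, 100 and 520 in synaptosomes and -882, -1781 and 228 in the hippocampus, all under the floor. A difference was not detectable with them.

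Phosphofructokinase commits glucose to glycolysis and is built from muscle, liver and platelet subunits, encoded by Pfkm, Pfkl and Pfkp. Pfkm, the muscle-type subunit, read 22369 in synaptosomes and 15046 in the hippocampus with its brighter probe set (U25651_at), a log2 ratio of 0.74 that is smaller than the SD between probe sets. Its other probe set (D21869_s_at) read 1434 and -290, which is at least 1.91-fold higher but close to the floor. Pfkl, the liver-type subunit, had the lower signal in synaptosomes on its single probe set, with 1144 there and 3926 in the hippocampus, a log2 ratio of -1.61. Both Pfkl signals lay within that noise around 0. With the floor at percentile 75 of all signals its ratio was -0.41, so its size rests on dim signals. Pfkm exceeded Pfkl by 2.35 on the log2 scale, or 1.84 SDs of a difference, but by 1.06, or 0.83 SDs, with that higher floor. Pfkp, which is not among the 10 genes, had a log2 ratio of 0.28, with signals of 13129 and 12206.

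Aldolase A cleaves fructose 1,6-bisphosphate and is the broadly expressed aldolase. Aldoa was represented by 1 probe set (rc_AA924326_s_at), which read 17836 in synaptosomes and 79434 in the hippocampus. Both signals were far above the noise around 0. The log2 ratio of -1.98 ranked Aldoa 44 from the bottom of 2735 genes, and it exceeded 2 SDs between probe sets of one gene. Over the settings in which Aldoa could be computed, its ratio ran from -2.15 to -1.64. Aldoc, the aldolase of astrocytes, read 64325 and 101688, a log2 ratio of -0.49. It exceeded Aldoa by 1.49, or 1.17 SDs of a difference, so the aldolases differed by little more than the spread between probe sets. With quantile normalization the difference was 2.94, or 2.30 SDs. The Aldoa probe set carries the suffix _s, which marks probes that can match more than one transcript, and no Aldoa probe set without a suffix was on the array.

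**Figure D2:**
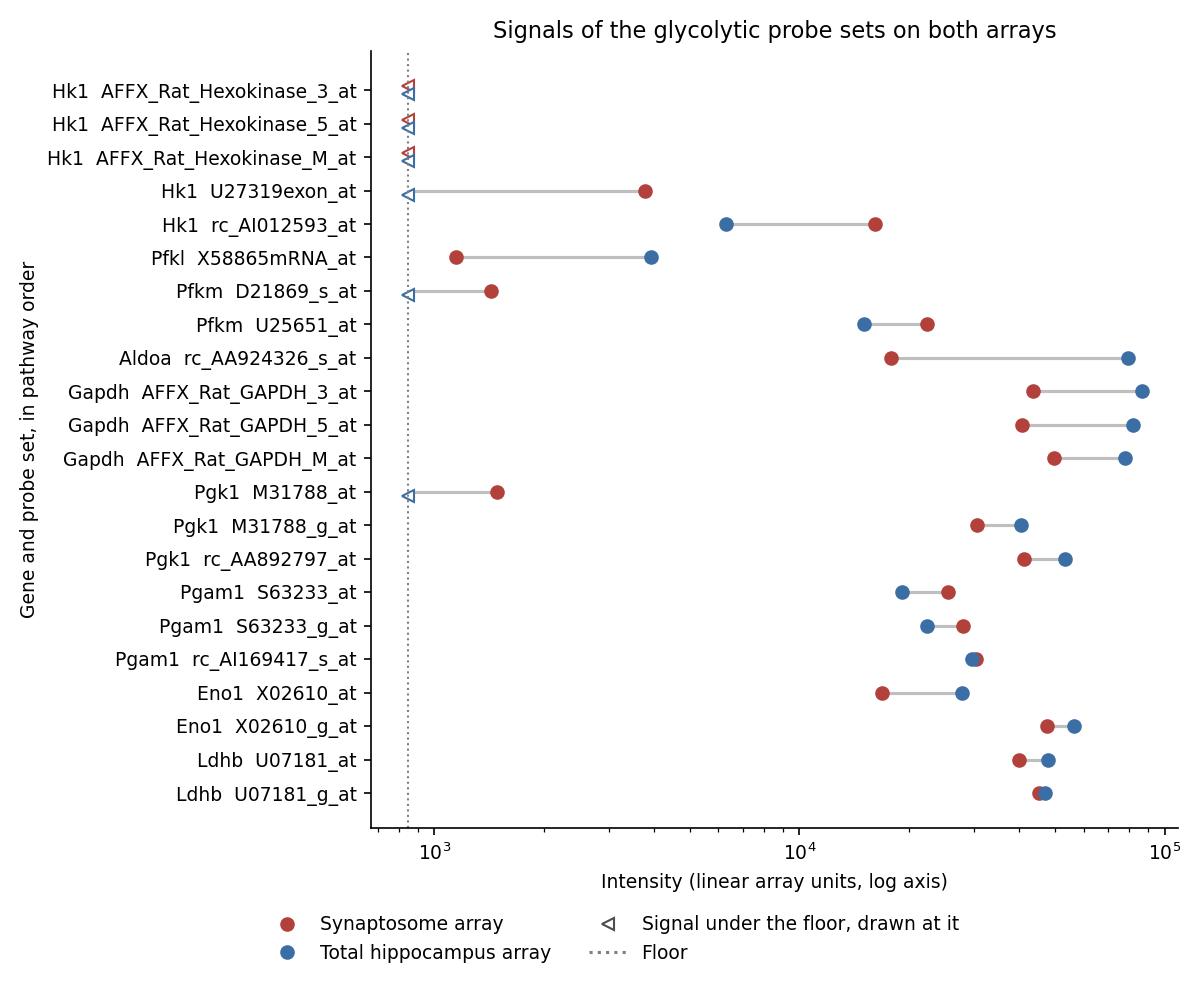
Deposited intensity on a log axis for the 22 antisense probe sets of the 9 genes, red for synaptosomes and blue for total hippocampus, with signals under the floor of 846 drawn as open triangles at it. Aldoa shows the widest gap among probe sets above the floor on both arrays, 17836 against 79434, and the 3 hexokinase control probe sets are under the floor on both arrays.

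Glyceraldehyde-3-phosphate dehydrogenase makes the NADH of glycolysis, and Gapdh is often used as a reference transcript. It was read through control probe sets for the 5′, middle and 3′ parts of the mRNA, since 1 further probe set is annotated to Gapdh together with Gapdh copies and was not used. The 5′ probe set read 40562 in synaptosomes and 82010 in the hippocampus, a log2 ratio of -0.85. The middle one read 49663 and 78065, a log2 ratio of -0.48. The 3′ one read 43598 and 86466, a log2 ratio of -0.82. All 3 were brighter on the hippocampus array, although the middle one had a ratio above 0 after loess or quantile normalization. None reached 2-fold with the centring, but the 5′ one had a log2 ratio of -1.02 without it. The 5′ and 3′ ends gave nearly the same ratio. The sense-strand counterparts, which measure background, read -489, -854 and 1300 in synaptosomes and -1343, 527 and 1271 in the hippocampus, for the 5′, middle and 3′ parts. Of the usual reference transcripts, β-actin was near equal, with log2 ratios of 0.23 at the 3′ end and 0.18 in the middle and -0.43 at the 5′ end.

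Phosphoglycerate kinase makes the first ATP of the pathway's later part. Pgk1 read 41243 in synaptosomes and 53281 in the hippocampus with its brightest probe set (rc_AA892797_at), a log2 ratio of -0.20. A second (M31788_g_at) read 30674 and 40489, a log2 ratio of -0.23. The third (M31788_at), whose name shows the same source sequence as the second, read 1487 and -923, a bound of 0.98. The bright probe sets thus gave one ratio, and the dim one differed by 1.21 from the probe set of its own source sequence. Phosphoglycerate mutase moves the phosphate before enolase acts. The 3 probe sets of Pgam1 read 30351, 28113 and 25571 in synaptosomes and 29742, 22334 and 19066 in the hippocampus. The log2 ratios were 0.20, 0.50 and 0.59, the last 2 from one source sequence, and all lay above 0 but within 1 SD between probe sets.

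Enolase 1 is the broadly expressed enolase, and Eno2 is its neuronal counterpart, for which no value is given here. Eno1 read 47515 in synaptosomes and 56363 in the hippocampus with its brighter probe set (X02610_g_at), a log2 ratio of -0.08. The other (X02610_at), from the same source sequence, read 16812 and 27817, a log2 ratio of -0.56. Lactate dehydrogenase B is the subunit of tetramers that favour lactate oxidation. Ldhb read 45257 and 46962 with one probe set (U07181_g_at) and 39925 and 47894 with the other (U07181_at). The log2 ratios of 0.12 and -0.09 lie on either side of 0 and are far smaller than the SD between probe sets. No difference was detectable for Eno1 or Ldhb at this precision.

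The small ratios of the bright genes depend on how signal level is treated. Among the 232 filtered ordinary probe sets with a mean log2 level of 15 or more, the median log2 ratio was -0.52, and 27.6% of them were past 2-fold downwards against 0.862% upwards. Between 14 and 15 the median of 229 probe sets was 0.02. The 9 glycolytic probe sets at 15 or more belong to Aldoa, Gapdh, Pgk1, Eno1 and Ldhb. Of these 9, 8 had a ratio below 0, where 78.9% of the 232 did, and 6 lay above the median of equally bright probe sets. Aldoa lay 1.47 below that median, one of 12 among the 232 with a ratio that low. The middle Gapdh probe set lay 0.03 above it. After a level-dependent loess correction the ratios of Gapdh, Pgk1 and Eno1 changed sign, to 0.11, 0.25 and 0.43, and quantile normalization gave the Gapdh, Pgk1 and Eno1 genes 0.14, 0.12 and 0.41. Ldhb was -0.05 without centring and 0.56 with loess. Their direction is therefore not settled. Hk1 stayed between 1.36 and 1.93 and Pfkm between 0.57 and 0.91 over all settings.

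**Figure D3:**
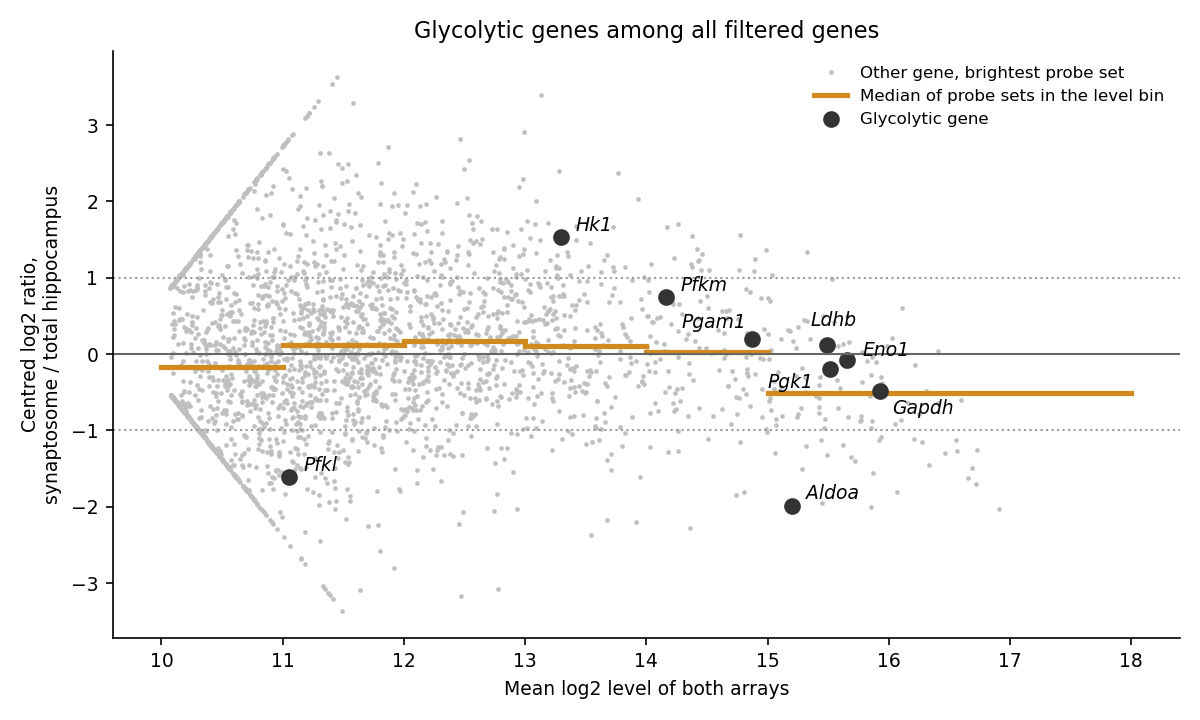
Centred log2 ratio against the mean log2 level of both arrays for the filtered genes, grey for other genes and black for the 9 glycolytic genes, with orange bars for the median of all filtered ordinary probe sets in each level bin. The orange bar falls to -0.52 at levels of 15 and above, where Gapdh, Pgk1, Eno1 and Ldhb lie around or above it and Aldoa well below it.

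**Figure D4:**
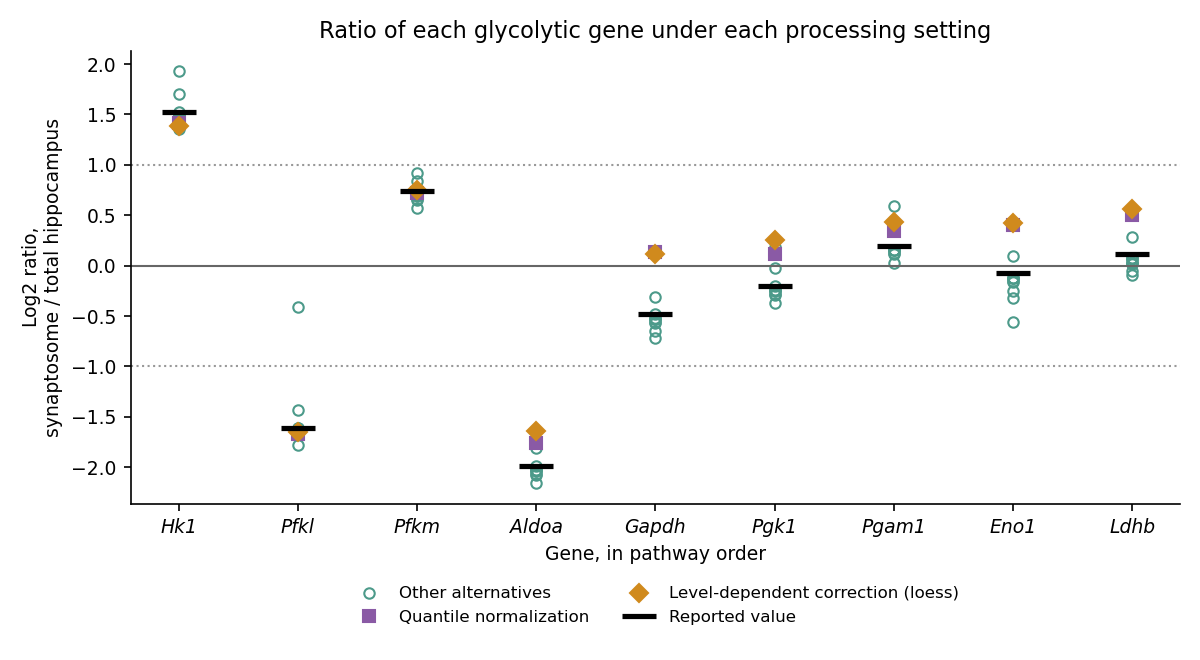
Log2 ratio of each of the 9 genes under the reported setting (black bar) and the alternatives (symbols), with dotted lines at 2-fold. Hk1 stays above 2-fold at 1.36 or more, Aldoa below it at -1.64 or less where it could be computed, and Pfkl moves to -0.41 with the higher floor, while Gapdh, Pgk1, Eno1 and Ldhb cross 0.

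Of 16 other glycolytic isozymes listed, 8 were on the array and 4 passed the filter. None of the 4 reached 2-fold in the reported setting, where 19.1% of all filtered genes were higher and 14.3% lower. Pkm, pyruvate kinase, read 39786 and 53689, a log2 ratio of -0.26. It became 0.18 with loess, and Aldoc became 0.24 with loess and 1.19, above 2-fold, with quantile normalization. Hk2, the insulin-responsive hexokinase, read 3154 and 5904, a log2 ratio of -0.73. Hk1 exceeded Hk2 by 2.26, which is 1.77 SDs of a difference, and by 1.52, or 1.19 SDs, with the floor at the 95th percentile of the sizes of negative signals. Eno3, Ldhc, Pgam2 and Pklr, isozymes of muscle, testis and liver, were under the floor on both arrays. Tpi1 and Ldha were annotated only together with copies and were not used.

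Around the pathway, 9 lists of energy metabolism held 89 genes, of which 61 were on the array and 38 passed the filter. Past 2-fold, 4 of the 38 were higher, or 10.5% against 19.1% of all filtered genes, and 5 were lower, or 13.2% against 14.3%. The median was -0.06. In the reported setting a wide gap separated the creatine kinases, which regenerate ATP from phosphocreatine. Ckb, the brain form, read 29814 in synaptosomes and 8174 in the hippocampus, a log2 ratio of 2.04 with one probe set and 0.80 with another. Ckm, the muscle form, read 928 and 4373, a log2 ratio of -2.07 that was -0.56 with the higher floor. Both Ckm signals lay within the noise around 0. Ckmt1, the mitochondrial form, had a log2 ratio of 0.57.

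For the entry of pyruvate into mitochondria, 2 of 7 filtered genes were higher, where 19.1% of all filtered genes were, and 1 was lower, where 14.3% were, which is near those shares for so few genes. Pdk2, a kinase that inhibits pyruvate dehydrogenase, read 5883 and 1406, a log2 ratio of 2.24, which was 1.16 with the floor at percentile 75 and 0.25, under 2-fold, with the floor at negative sizes. Pc, pyruvate carboxylase, was at least 3.96-fold higher against the floor of 846, with signals of 2980 and 545, but its log2 ratio was 0.17 with the floor at percentile 75. Pdhx, a structural component of the dehydrogenase complex, read 882 and 2719, both within the noise around 0, a log2 ratio of -1.45. Mpc1, a subunit of the mitochondrial pyruvate carrier, had one of -0.55, or 0.02 with loess. Among the carriers of NADH equivalents, 2 of 7 were lower, where 14.3% of all filtered genes were, and none higher, where 19.1% were. The cytosolic malate dehydrogenase Mdh1 read 39504 and 97319, a log2 ratio of -1.13 that fell short of 2-fold with loess, at -0.54. The glycerol-3-phosphate dehydrogenase Gpd1 was at least 2.96-fold lower, with a synaptosome signal of 205 and a hippocampus signal of 2818, and with the higher floor its ratio was 0.07. Gpd2 and Slc25a11 had log2 ratios of 0.22 and 0.26, and of 1.04 and 0.93 on their other probe sets.

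Glucose and monocarboxylate transporters had 1 of 5 filtered genes higher and none lower, where 19.1% and 14.3% of all filtered genes were. Their median of 0.88 ran from -0.65 to 1.05 over the settings. Slc2a5, a fructose transporter, was at least 3.91-fold higher against the floor of 846, with signals of 2937 and 271, but its log2 ratio was 0.15 with the floor at percentile 75. Slc2a3, the neuronal glucose transporter, read 1764 and 1032, both within the noise around 0, a log2 ratio of 0.94. Slc16a3, a lactate exporter, had one of -0.84 on signals of 1337 and 2692, also within that noise. Bsg, the chaperone of these exporters, had one of -0.46. Among regulators, Pfkfb3, which makes the activator of phosphofructokinase, was at least 2.36-fold lower, with signals of 396 and 2250, both within that noise. Pfkfb1 had a log2 ratio of -0.75, with -0.11 on its other probe set. In the pentose phosphate pathway Taldo1 had one of -0.98 and Tkt one of -0.25, with -1.37 on its other probe set. None of the 8 filtered genes of glycogen metabolism reached 2-fold in the reported setting. In other settings Pgm1 passed it at -1.26, with the floor at percentile 75, and Phka1 at -1.14, without centring. Gsk3b had a log2 ratio of 0.56, Gyg1 one of -0.34 and Phka1 was at least 1.96-fold lower, while Pgm1 had 0.81 with one probe set and -1.61 with another. Fbp1, Fbp2 and Pck1, the enzymes of gluconeogenesis on the array, were under the floor on both arrays.

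**Figure D5:**
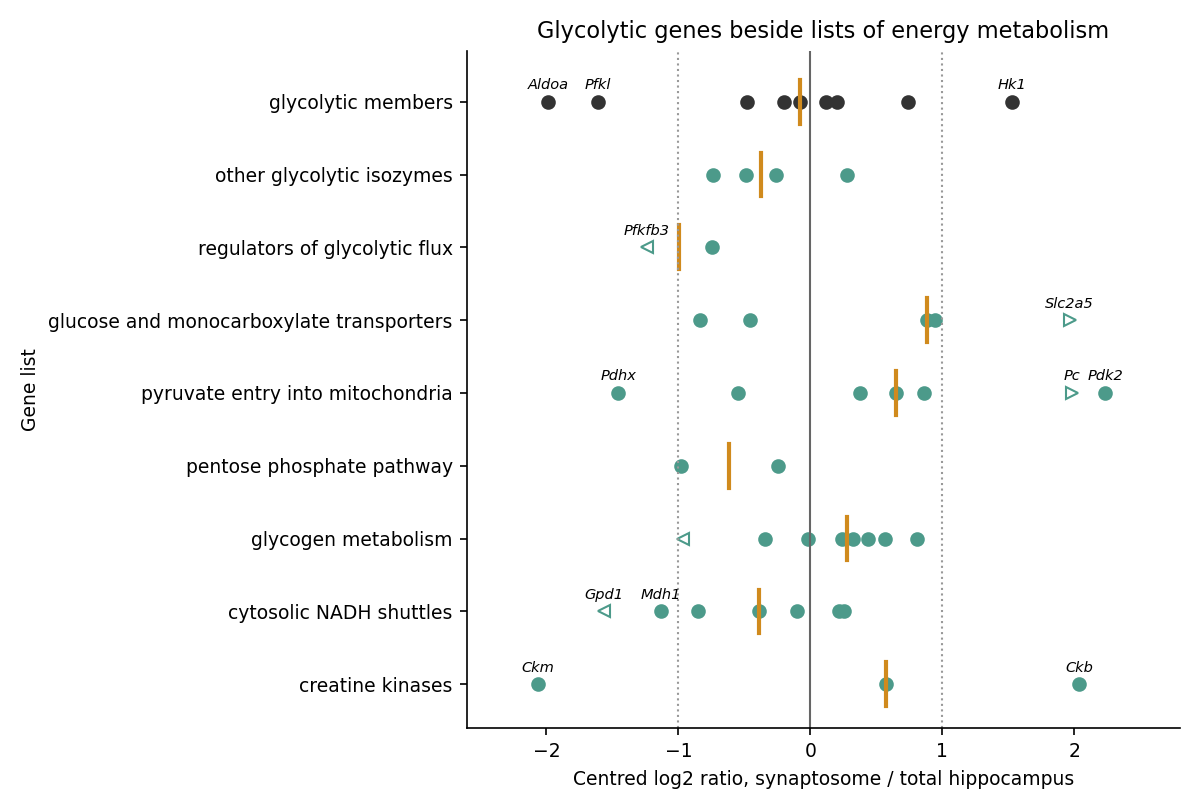
Centred log2 ratio of the 9 glycolytic genes (black) and of the filtered genes of 8 neighbouring lists (green), with open triangles for bounds, an orange bar for each list's median and dotted lines at 2-fold. The extremes are Ckb at 2.04 and Pdk2 at 2.24 on the right and Ckm at -2.07 and Aldoa at -1.98 on the left.

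Marker genes of the cell types in the tissue had ratios on both sides of 0, and their part in the results was not tested. Of 10 filtered neuronal markers, 1 was at least 2-fold higher and 1 lower, where 19.1% and 14.3% of all filtered genes were. The median of the 10 was 0.47, and their probe sets summed to 233433 in synaptosomes and 357381 in the hippocampus. Syn2 had a log2 ratio of 1.10, Nefm 0.92, Camk2a -0.22 and Snap25 -1.56. The probe sets of Syn2 ran from 0.11 to 1.90, those of Camk2a from -0.22 to 0.15 and those of Snap25 from -1.79 to -0.74. Slc17a7 was under the floor on both arrays. Of 9 astrocyte markers, Aldoc among them, 2 were higher and 1 lower, where 19.1% and 14.3% of all filtered genes were. Their median was 0.24 and their sums were 385641 and 408718. S100b had a log2 ratio of 1.34 and Slc4a4 one of 1.05. Gja1 was at least 1.97-fold lower, and Slc1a2 had -1.51 with one probe set and 1.24 with another.

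Oligodendrocyte markers had 1 of 7 higher and 3 lower, where 19.1% and 14.3% of all filtered genes were, with sums of 40474 and 90112. Cnp was at 1.42, Mbp at -2.23, Mobp at -1.83 and Ugt8 at 0.35. The probe sets of Mobp ran from -3.10 to -0.65 and those of Ugt8 from -1.04 to 0.35. With the floor at negative sizes Cnp was 0.80 and Mbp -0.53, both under 2-fold, and Mobp -1.36. Endothelial and pericyte markers, a list of few genes, had 3 of 5 lower, where 14.3% of all filtered genes were, with sums of 6464 and 18578. Kdr was at least 4.09-fold lower, Flt1 had a log2 ratio of -1.21, Pdgfrb was at least 1.53-fold lower and Pecam1 had 0.38. Kdr was -0.39 with the floor at percentile 75 and Flt1 -0.42 with the floor at negative sizes, both under 2-fold. Vwf was under the floor on both arrays. Erythroid markers, also a list of few genes, had 2 of 4 lower, where 14.3% of all filtered genes were, with sums of 20548 and 71601. The β-globin genes Hbb and Hbb-b1 had log2 ratios of -2.20 and -2.37, on probe sets that near-identical globins can share. Alas2 and Slc4a1 had -0.09 and -0.15, and the probe sets of Slc4a1 ran from -0.91 to 2.19. Of 2 filtered microglial markers, Aif1 had 0.98 with one probe set and 2.74 with another, and Ptprc was at least 1.60-fold lower. The sums for the list were 17655 and 8326. Csf1r and Itgam were under the floor on both arrays.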

How the data were processed

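RNA of 1 synaptosome and 1 total hippocampus preparation was measured on 1 array each. The table deposited by the authors gives a linear intensity for each of 8799 probe sets, 59 of them controls. How background was corrected, and with which software, is not given in the sources used here. After removal of 2% of probe sets at either end the mean signal was 2482 for synaptosomes and 2475 for the hippocampus, so no further scaling was applied, and 25.2% and 31.4% of ordinary signals were at or below 0.

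The setting follows an earlier analysis of these data. Signals were floored at 846, log2 was taken, probe sets with a mean log2 level of 10.07 or more were kept (4370 of 8740), and ratios were centred by -0.17. Symbols are those of the platform's annotation. The gene identifiers of 6994 of the 7018 probe sets with 1 symbol were found in the RefSeq table, which changed 0 symbols. Names of 191 probe sets contain a # sign, and these have no symbol in the annotation used here.

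The members and lists were chosen with earlier results of these data known. The genes named are all members with every probe set and, per list, the 2 highest and 2 lowest filtered genes. The β-actin controls and the genes named as under the floor were added after their values were seen. Proteins of the members were to be compared, but no protein table was used here. Alternatives were 10 planned settings and 1 added after the data were seen, which centred on the bacterial hybridisation controls. Scripts ran in Python 3.11.15 with statsmodels 0.14.6 (loess span 0.4), pandas 2.3.3, NumPy 2.4.6 and matplotlib 3.10.9, and were tested on simulated data.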

Additional observations from a re-analysis of the deposited data

How the results depend on the processing

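The median log2 ratio of the 9 genes ran from -0.25 without centring to 0.43 with loess. Of 96 values of single genes under the 11 alternatives, 95 moved by less than 0.90, the pooled SD among probe sets of a gene, and 1, Pfkl with the higher floor, moved further, to -0.41. The count of genes at least 2-fold lower was 1 in place of 2 with the floor at percentile 75, with the floor at the 95th percentile of negative sizes, with the filter at percentile 75 and without suffixed probe sets. Pfkl went under 2-fold in the first of these and was left out by the next 2, and without suffixed probe sets Aldoa had no value. The count of member probe sets past 2-fold was 4 of 19, where 19.1% of all 4370 filtered ordinary probe sets were higher and 14.9% lower. It was 2 of 17 with the floor at percentile 75, and 2 of 15 with the floor at negative sizes or the filter at percentile 75. With both signals above the floor it was 3 of 16, and without suffixed probe sets 3 of 12. Without centring it was 5 of 19, and with centring on the hybridisation controls 6 of 19. Of all genes past 2-fold, 57.2% were higher with centring, 43.1% without it, and 69.3% with centring on the hybridisation controls. Genes past 2-fold fell from 522 higher and 391 lower to 173 and 136 with the floor at percentile 75. Further counts were 82 and 79 with the floor at negative sizes, 202 and 161 with the filter at percentile 75, and 291 and 254 when both signals had to exceed the floor. These settings tested fewer genes, 1719, 991, 1400 and 2234. Among the other 788 values, 761 moved by less than 0.90 and 25 moved further. The remaining 2 were past 2-fold in the reported setting and changed sign. These were Gpd1, to 0.0734 with the floor at percentile 75, and Slc1a2, to 1.24 without suffixed probe sets, where another probe set was used. Some of the 25, under 2-fold in the reported setting, also changed sign. Among them were Pgm1, to -1.26 with the floor at percentile 75, and Aldoc, to 1.19 with quantile normalization. Without suffixed probe sets Ugt8 went to -1.04 and the median of the glucose and monocarboxylate transporters to -0.65. No paired analysis was possible because each group has 1 array. Leaving out an array was not possible for the same reason. Signals near the noise around 0 limit Pfkl and the bounds of Hk1, Pfkm and Pgk1.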

Other observations

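The ratios of 2 usual reference transcripts differed by less than 1.28, the SD of a difference between 2 probe sets. Gapdh minus β-actin in log2 ratio was -0.42 with the 5′ control probe sets, -0.66 with the middle ones and -1.04 with the 3′ ones, so a fold scaled to Gapdh would exceed one scaled to β-actin by 1.34, 1.58 or 2.06 times, depending on the part of the mRNA probed.

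Probe sets of one source sequence differed by 0.09 for Pgam1, 0.48 for Eno1, 0.21 for Ldhb and, as a bound, 1.21 for Pgk1. The bacterial hybridisation control probe sets above the floor on both arrays, 9 in all, had log2 ratios from -0.97 to 0.81 with a median of -0.17. The brightest, CreX-3, read 77649 in synaptosomes and 170950 in the hippocampus, and the dimmer BioB-3 read 3881 and 2802. Whether equal amounts were added is not stated in the labels.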
